A study of Mus musculus with 20 samples.

Results

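Fc receptors bind the constant region of antibodies at the surface of immune cells. The activating receptors for IgG signal through a partner chain that carries an immunoreceptor tyrosine-based activation motif (ITAM), whose phosphorylated tyrosines recruit the kinase Syk, whereas Fcgr2b carries an inhibitory motif of its own. In skin these molecules are known from macrophages, dendritic cells, mast cells and neutrophils. The genes described here are the activating IgG receptors Fcgr1, Fcgr3 and Fcgr4, the inhibitory receptor Fcgr2b, the low-affinity IgE receptor Fcer2a (CD23), the ITAM adaptors Fcer1g (the FcR gamma chain) and Tyrobp (DAP12), and Syk, 8 of the 18194 genes that have a probe set of their own in the annotation. Every probe set that the array annotation gives to just 1 of them was taken, which made 17 of the 45101 probe sets in the table, and 14 of the 17 passed the filter of the methods and were tested. No value of the table was below 2.02, so the required SD over 0.1 decided which were tested.

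Full-thickness skin was profiled from 20 female C57BL/6 mice, 1 mouse4302 Affymetrix array per mouse, in 4 groups of 5. The mice were bought at 6 weeks of age and housed for 1 week. Those of 3 groups received recombinant IL-23 (3 µg by intradermal injection into dorsal skin on each day between day 1 and day 4) and then, under the skin of a distant site on days 4, 5 and 6, either IMO-8400, IMO-3100 or saline, and skin of the IL-23 site was taken on day 7. IMO-8400 is an oligonucleotide antagonist of Toll-like receptors 7, 8 and 9 and IMO-3100 one of Toll-like receptors 7 and 9. Both were given at 15 mg/kg by the methods of the study, which name the vehicle as PBS, while the series record speaks of different doses of 1 antagonist. Naïve mice were the untreated controls. No injection is stated for naïve mice, so the effects of IL-23 and of the injection itself cannot be told apart. All values are GCRMA expression values on a log2 scale, where a difference of 1 is a 2-fold change, and group values are given as mean ± SD with n = 5 mice. Levels of different probe sets cannot be set against each other.

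Medians of the 20 arrays lay between 6.09 and 6.29. Of 6 keratinocyte markers 0 passed the test in any comparison, with a mean level of 14.2 in IMO-8400 mice, 14.2 in IMO-3100 mice, 14.1 in saline mice and 14.1 in naïve mice. The naïve mice were not alike. The mean of 6 hair keratins was 14.1, 12.9, 10.8, 5.13 and 2.96 in naïve replicates 1 to 5, against 2.02 to 2.30 in the other 15 mice except IMO-8400 replicate 5 at 7.88. The mean of 6 leukocyte genes was 11.5, 13.0, 13.2, 13.5 and 13.5 in the same naïve mice. The SD among naïve mice was the largest of the 4 groups at 13 of the 14 tested member probe sets, and at 52.7% of all tested probe sets, and naïve replicate 1 had the lowest naïve value at 13 of 14. Counts of calls against naïve mice, and the members called in them, are therefore also given without naïve replicates 1 and 2.

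Fcgr4, an activating receptor for IgG that needs the gamma chain, had the largest rise among the genes measured with 1 probe set. Its values (1425225_at) were 13.54, 13.68, 13.36, 13.28 and 12.97 in saline mice, against 5.98, 8.30, 10.27, 11.07 and 10.99 in naïve mice. All 5 saline values lay above all naïve values. Fcgr4 averaged 13.36 ± 0.27 in saline mice and 9.32 ± 2.18 in naïve mice, a log2 fold change of 4.04 (SE 0.68, limma adjusted p = 0.000130) or 16.5-fold, with a 95% interval of 6.15 to 44.0-fold. The log2 fold change was 3.21 without naïve replicate 1 (adjusted p = 1.62e-05) and 2.58 without naïve replicates 1 and 2 (adjusted p = 5.92e-06). In bulk skin a change in the number of cells that express a gene and a change in RNA per cell cannot be told apart.

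Fcgr1, the high-affinity IgG receptor, was up-regulated at both of its probe sets. At 1417876_at it measured 13.42, 13.70, 13.51, 13.08 and 12.87 in saline mice, against 8.97, 10.48, 11.70, 12.88 and 12.45 in naïve mice. The groups overlapped only in that the lowest saline mouse lay just under the highest naïve mouse. The log2 fold change was 2.02 (SE 0.52, adjusted p = 0.00444). At 1436625_at the means were 10.87 ± 0.60 in saline mice and 6.72 ± 2.87 in naïve mice, with no overlap, and the log2 fold change was 4.15 (SE 0.91, adjusted p = 0.00138). Naïve replicate 1 had 2.65 there, near the lowest value of the table, and the log2 fold change was 3.13 without it (adjusted p = 0.00114) and 2.20 without naïve replicates 1 and 2 (adjusted p = 0.00194). Without the same mice the value at 1417876_at was 1.44 (without replicate 1, adjusted p = 0.00544) and 0.97 (without both, adjusted p = 0.0222), the last under the 2-fold threshold.

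Fcgr3 and Fcgr2b, a low-affinity activating receptor and its inhibitory counterpart, did not pass the test. Fcgr3 (1448620_at) lay between 13.88 and 13.99 in saline mice, against 11.74, 13.21, 13.91, 13.74 and 14.28 in naïve mice. The saline values fell inside the naïve range and the log2 difference was 0.56 (95% interval -0.08 to 1.20, adjusted p = 0.140). The 4 tested probe sets of Fcgr2b had log2 differences of 0.62 to 1.00, with adjusted p between 0.0807 and 0.144. At 1435477_s_at, the one with the highest mean, the values ran between 13.42 and 14.05 in saline mice and between 11.36 and 13.97 in naïve mice. The name endings _s and _x mark probe sets that can share probes with other transcripts, so the Fcgr2b signal at 1435477_s_at and 1455332_x_at is uncertain. A further Fcgr2b probe set, 1447622_at, stood at 2.02 on all 20 arrays and was not tested.

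The gamma chain Fcer1g, through which Fcgr1, Fcgr3 and Fcgr4 signal, was up-regulated by a smaller step. Its values (1418340_at) were 13.74, 13.78, 13.71, 13.73 and 13.63 in saline mice, against 10.81, 12.28, 12.90, 13.26 and 13.38 in naïve mice. The groups did not overlap, and the log2 fold change was 1.19 (SE 0.32, adjusted p = 0.00579), or 2.29-fold. In a fit of only saline and naïve mice this call was lost (adjusted p = 0.0577). Tyrobp (1450792_at), the adaptor of many myeloid and NK cell receptors, averaged 13.88 ± 0.09 in saline mice and 12.93 ± 0.95 in naïve mice, also without overlap. Its log2 fold change of 0.94 (SE 0.29, adjusted p = 0.0136) was under the 2-fold threshold.

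Syk, the kinase that docks on phosphorylated ITAMs, was up-regulated at 3 of its 4 probe sets. At 1418261_at it measured 11.16, 11.37, 11.28, 11.45 and 11.22 in saline mice, against 8.72, 9.27, 10.01, 10.35 and 10.84 in naïve mice. Every saline mouse was higher than every naïve mouse, and the log2 fold change was 1.45 (SE 0.29, adjusted p = 0.000721). The values were 1.52 (adjusted p = 0.000792) at 1418262_at and 1.79 (adjusted p = 0.00117) at 1457239_at, and 0.98 (adjusted p = 0.00811, under the 2-fold threshold) at the dim 1425797_a_at. They were 0.89 at 1418261_at, 0.98 at 1418262_at and 1.45 at 1457239_at (adjusted p = 0.0147) without naïve replicates 1 and 2. The IgE receptor Fcer2a, which B cells carry, was at 2.30 or below on all 20 arrays at 1422122_at and at 2.02 on all arrays at 1451713_a_at. Neither was tested and no fold is given.

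**Figure D1:**
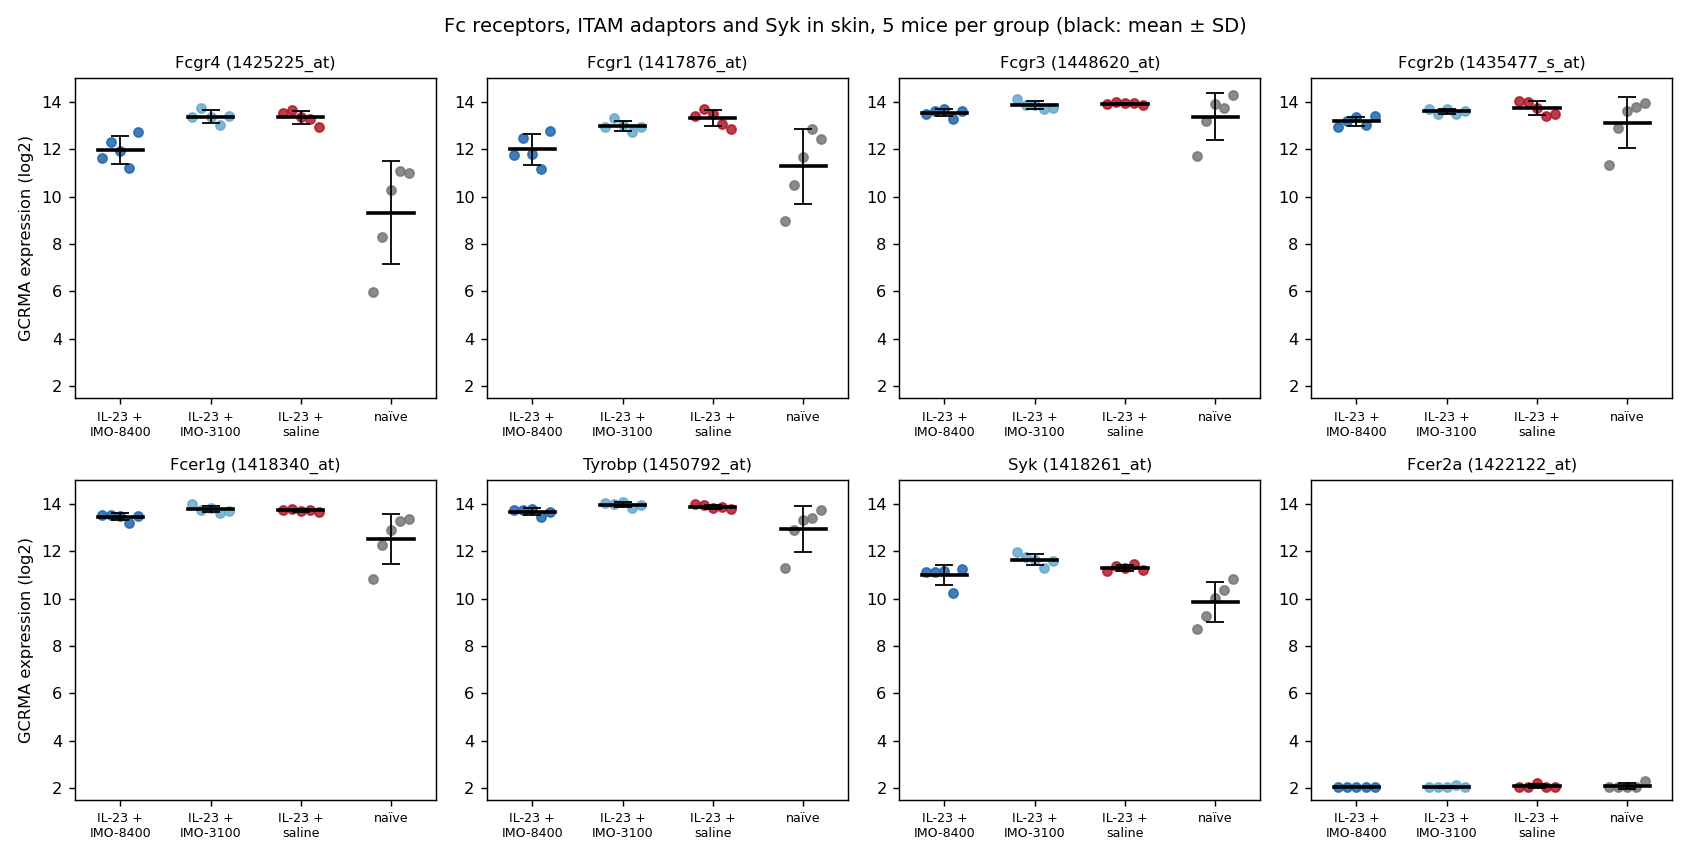
GCRMA expression (log2, y axis) of the probe set with the highest mean for each of the 8 genes, by group (x axis, 5 mice each), with points for mice and black lines for mean ± SD. Fcgr4 has the widest distance between saline mice (12.97 to 13.68) and naïve mice (5.98 to 11.07), and Fcer2a stays at 2.30 or below in every mouse.

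In saline mice against naïve mice, 7 of the 14 tested probe sets, of 4 genes (Fcgr1, Fcgr4, Fcer1g and Syk), were higher at an FDR under 0.05 and a fold change over 2, and 0 were lower, while 7.58% of all tested probe sets were higher. All 14 differences were positive, with a median of 1.09 against -0.04 over all tested probe sets. In 6 of 14 the groups did not overlap, against 11.7% of all tested probe sets that were higher without overlap. Probe sets of 1 gene measure the same transcripts and are not separate observations. Without naïve replicates 1 and 2, where 6.78% of all tested probe sets were higher, the calls were 3, namely Fcgr4, Fcgr1 at 1436625_at and Syk at 1457239_at. Without naïve replicate 5 they were 11, a setting for which the share of all tested probe sets is not given. Fcer1g had a log2 fold change of 0.54 without naïve replicates 1 and 2 and 0.76 without naïve replicate 1, under the 2-fold threshold. Some calls were gained by leaving out 1 mouse, namely Tyrobp without naïve replicate 3, 4 or 5 (1.04 to 1.14), Syk at 1425797_a_at without naïve replicate 3 or 5 or saline replicate 4 (1.07 to 1.15) and Fcgr2b at 1435476_a_at and 1451941_a_at without naïve replicate 4 or 5 (1.23 to 1.30).

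The naïve mice held most of this variation. The mean over the 14 tested probe sets was 8.35, 9.69, 10.66, 11.06 and 11.33 in naïve replicates 1 to 5, against 11.49 to 12.11 in saline mice. The naïve mice with the higher hair keratin levels given above were those with the lower members, and 10 macrophage and monocyte markers averaged 10.2, 11.4, 12.0, 12.2 and 12.6 in the same naïve mice. The list of 12 hair and melanocyte genes was lower in saline mice at 12 of 12 genes, with group means of 3.54 in saline mice and 9.05 in naïve mice. The part of these genes in the results was not tested. The 6 pan-leukocyte genes averaged 13.88 (range over mice 13.73 to 14.00) in saline mice and 12.93 (11.48 to 13.54) in naïve mice, with 3 of 6 higher. Macrophage markers averaged 12.57 (12.42 to 12.66) in saline mice and 11.70 (10.21 to 12.64) in naïve mice, with 4 of 10 higher and 1 lower. Neutrophil markers averaged 5.09 (4.82 to 5.40) in saline mice and 2.90 (2.54 to 3.29) in naïve mice, with 4 of 5 tested markers higher and Mpo, Elane, Ngp and Ltf near background in all groups. The B cell markers Cd79a, Cr2 and Pax5 were near background in all groups, although 4 of 4 tested B cell markers were higher in saline mice. Among those tested were Cd22 and Blk, which are also in the pathway lists given below. Dendritic and Langerhans cell markers averaged 8.91 (8.68 to 9.03) in saline mice and 8.84 (7.87 to 9.19) in naïve mice, with 1 of 8 higher and 2 lower.

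**Figure D2:**
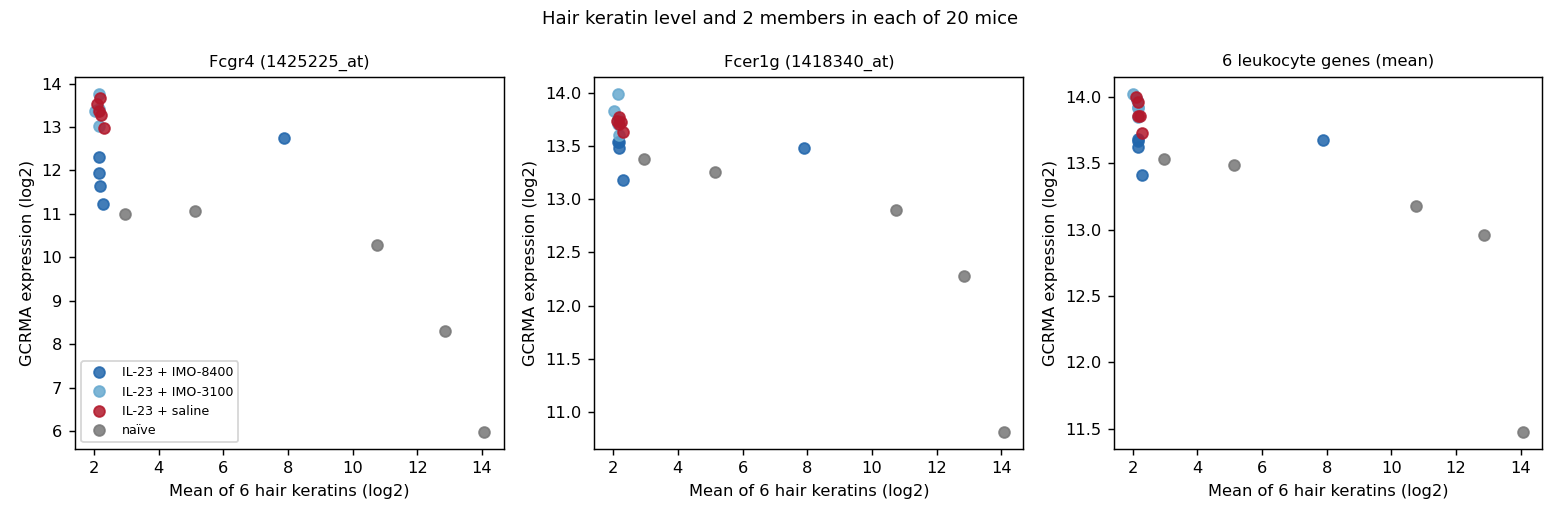
Fcgr4, Fcer1g and the mean of 6 leukocyte genes (GCRMA log2, y axes) against the mean of 6 hair keratins (log2, x axis), with 1 point per mouse and colours for groups. The naïve mice at hair keratin levels of 14.1 and 12.9 have the lowest Fcgr4 values of all 20 mice, 5.98 and 8.30.

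Between IMO-8400 and saline mice no member passed the test in the fit of all 4 groups, while at 10 of 14 probe sets every IMO-8400 value lay below every saline value. Fcgr4 measured 11.64, 12.31, 11.93, 11.24 and 12.75 in IMO-8400 mice, against the saline values of 12.97 to 13.68. No IMO-8400 mouse reached the saline range, and the log2 difference was -1.39 (95% interval -2.81 to 0.03, adjusted p = 0.133). Fcgr1 at 1417876_at measured 11.76, 12.50, 11.80, 11.17 and 12.79 in IMO-8400 mice, against 12.87 to 13.70 in saline mice. These groups were also apart, with a log2 difference of -1.31 (95% interval -2.40 to -0.22, adjusted p = 0.0685). At 1436625_at the difference was -1.75 (adjusted p = 0.161).

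The inhibitory receptor was among those without overlap. The 4 Fcgr2b probe sets had log2 differences of -0.56 to -1.04 between IMO-8400 and saline mice, without overlap at any of them, and adjusted p between 0.0921 and 0.232. Fcgr3 lay between 13.29 and 13.70 in IMO-8400 mice and between 13.88 and 13.99 in saline mice, a log2 difference of -0.39 (adjusted p = 0.366). The differences were smaller for the adaptors, at -0.27 for Fcer1g (adjusted p = 0.566) and -0.21 for Tyrobp (adjusted p = 0.643). For Syk they ran between -0.31 and -0.56.

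Over these 14 probe sets, limma called 0 lower and 0 higher in IMO-8400 mice against saline mice, where 3.59% of all tested probe sets were lower, and 3 had an unadjusted p under 0.05. All 14 differences were negative, with a median of -0.56 against 0.01 over all tested probe sets, and 10 of 14 were lower without overlap, against 12.8% of all. The pooled spread of the 4-group fit contains the wide naïve group. In a fit of only IMO-8400 and saline mice, 4 of 14 were lower, against 3.93% of all tested probe sets. They were Fcgr4 (adjusted p = 0.00462), both Fcgr1 probe sets (adjusted p = 0.00990 and 0.0104) and Fcgr2b at 1451941_a_at (adjusted p = 0.0127). Pan-leukocyte markers averaged 13.61 (13.41 to 13.68) in IMO-8400 mice and 13.88 (13.73 to 14.00) in saline mice, so these ranges did not overlap either, and their part in these differences was not tested. Macrophage markers averaged 12.34 (11.86 to 12.56) in IMO-8400 mice and 12.57 (12.42 to 12.66) in saline mice. Of these markers 1 of 10 was lower, and their median log2 difference was -0.03. Neutrophil markers averaged 3.79 (3.45 to 4.04) in IMO-8400 mice and 5.09 (4.82 to 5.40) in saline mice, with 4 of 5 tested markers lower. NK cell markers averaged 7.57 (7.00 to 8.38) in IMO-8400 mice and 8.95 (8.24 to 9.63) in saline mice, with 3 of 5 lower. The part of these cells was not tested either.

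IMO-3100 mice did not show this pattern. Fcgr4 measured 13.37, 13.76, 13.36, 13.02 and 13.43 in IMO-3100 mice, of which 4 lay inside the saline range and 1 just above it, with a log2 difference of 0.02 (95% interval -1.40 to 1.44, or -0.34 to 0.38 in a fit of these groups alone). Fcgr1 at 1417876_at lay between 12.75 and 13.32 in IMO-3100 mice and between 12.87 and 13.70 in saline mice, a log2 difference of -0.31 (95% interval -1.40 to 0.78). Of the 14 probe sets limma called 0, and 0 had an unadjusted p under 0.05, while 3.73% of all tested probe sets were lower. Positive and negative differences were 7 each and ran between -0.54 and 0.35. In the 4-group fit the interval of Fcgr4 still held changes of over 2-fold in both directions. Neutrophil markers averaged 3.75 (3.65 to 3.88) in IMO-3100 mice and 5.09 (4.82 to 5.40) in saline mice, with 3 of 5 tested markers lower, and NK cell markers 7.46 (7.10 to 8.05) in IMO-3100 mice and 8.95 (8.24 to 9.63) in saline mice, with 3 of 5 lower.

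**Figure D3:**
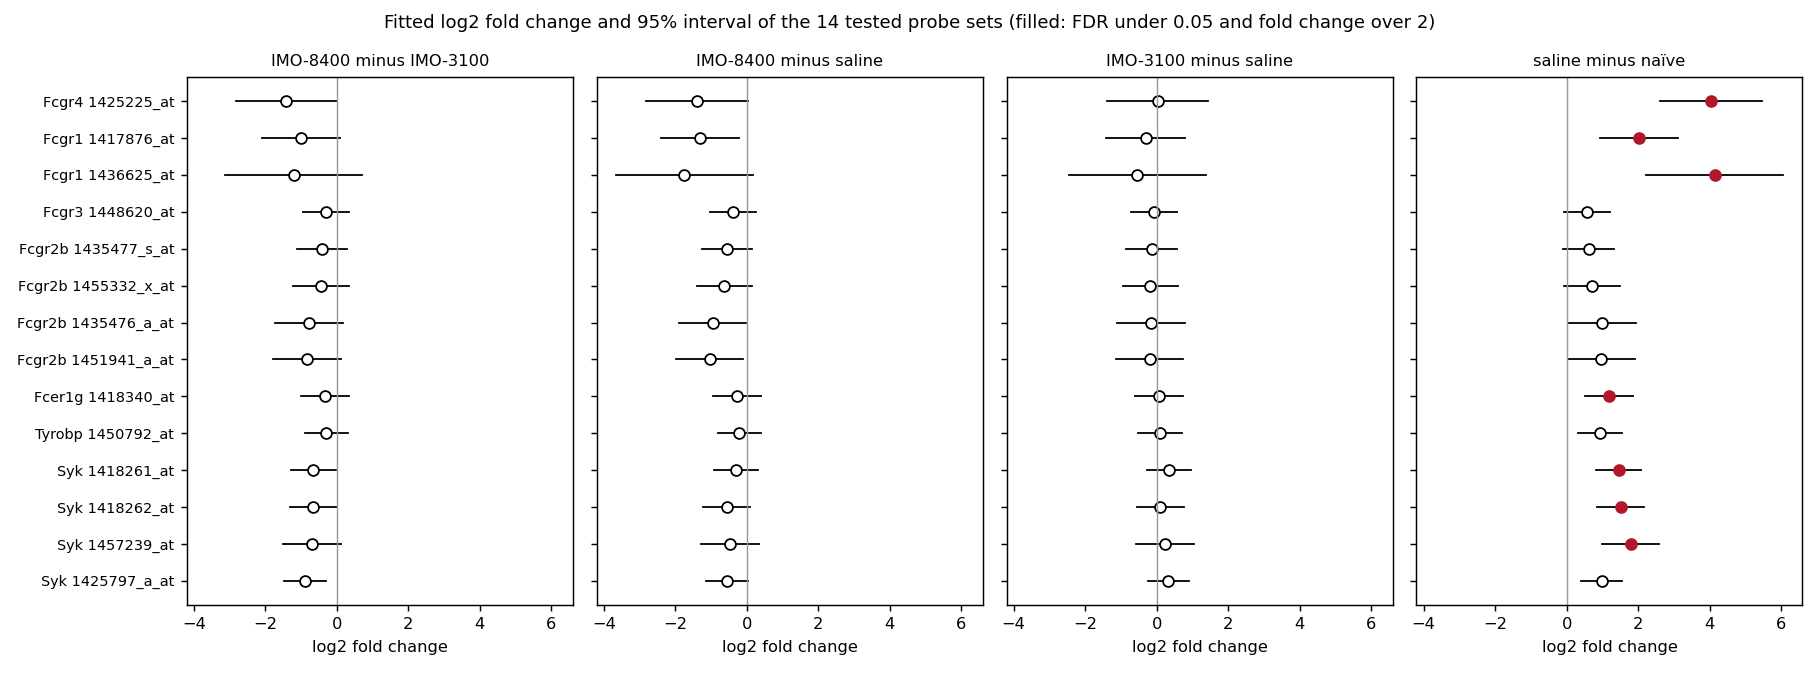
Fitted log2 fold change (x axis) with its 95% interval for the 14 tested probe sets (y axis) in 4 comparisons, from the limma fit of all 20 mice, with filled points for those past the threshold. All 14 points lie below 0 in both panels of IMO-8400 and all 14 above 0 in the panel of saline minus naïve, where 7 are filled.

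Set against each other on the same day and, by the methods, at the same dose, the antagonists differed most at Fcgr4. It averaged 11.97 ± 0.59 in IMO-8400 mice and 13.39 ± 0.26 in IMO-3100 mice, with no overlap, a log2 difference of -1.41 (95% interval -2.83 to 0.01, adjusted p = 0.234). Of the 14 probe sets limma called 0 in either direction, with 3 at an unadjusted p under 0.05, where 0.245% of all tested probe sets were lower. All 14 were lower in IMO-8400 mice and 10 of them without overlap, against 4.62% of all tested probe sets, and their median difference was -0.68 against 0.02 over all. In a fit of these groups alone Fcgr4 was the 1 of 14 lower at both thresholds (adjusted p = 0.0219), against 0.64% of all tested probe sets. Syk at 1425797_a_at had the lowest adjusted p of the 4-group fit, 0.0751, with a log2 difference of -0.89. Pan-leukocyte markers averaged 13.61 (13.41 to 13.68) in IMO-8400 mice and 13.94 (13.85 to 14.02) in IMO-3100 mice, without overlap. Their median log2 difference was -0.32, beside -0.33 for Fcer1g and -0.30 for Tyrobp. Macrophage markers averaged 12.34 (11.86 to 12.56) and 12.79 (12.59 to 13.00) in the same groups, with a median difference of -0.20. The part of these cells was not tested.

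Both antagonist groups were also set against naïve mice. In IMO-3100 mice 9 of 14 probe sets, of 5 genes, were higher, where 4.9% of all tested probe sets were, and 0 were lower. They included Fcgr4 (log2 fold change 4.06, adjusted p = 0.000344) and Tyrobp (1.03, adjusted p = 0.0137). In IMO-8400 mice 3 of 14 were higher, where 3.6% of all tested probe sets were, namely Fcgr4 (2.65, adjusted p = 0.0122) and Syk at 1418261_at (1.15, adjusted p = 0.0128) and 1457239_at (1.32, adjusted p = 0.0247). Fcgr2b stood at the naïve mean in IMO-8400 mice, with log2 differences of -0.06 to 0.08. Without naïve replicates 1 and 2 these differences were -0.61 to -0.92. The counts of calls without naïve replicates 1 and 2 were 5 in IMO-3100 mice, where 3.37% of all tested probe sets were higher, and 1 in IMO-8400 mice, where 2.75% were. Fcgr4 then had a log2 fold change of 2.61 in IMO-3100 mice (adjusted p = 1.65e-05) and 1.19 in IMO-8400 mice (adjusted p = 0.0104). In a fit of only IMO-8400 and naïve mice the calls of Fcgr4 (adjusted p = 0.104) and of Syk at 1418261_at (adjusted p = 0.0980) were lost, which left Syk at 1457239_at (adjusted p = 0.0494). In a fit of only IMO-3100 and naïve mice those of Fcgr1 at both probe sets (adjusted p = 0.106 and 0.0696), Fcer1g (adjusted p = 0.0798) and Tyrobp (adjusted p = 0.104) were lost, and 5 calls were left. In IMO-3100 mice the call of Fcgr1 at 1417876_at was lost without naïve replicate 2 (1.51, adjusted p = 0.0572), and those of Fcer1g (0.83) and Tyrobp (0.63) without naïve replicate 1. In IMO-8400 mice the call of Syk at 1418261_at was lost without naïve replicate 1 (0.87), and that at 1457239_at without naïve replicate 1 or 2 or IMO-8400 replicate 2 or 5 (1.14 to 1.25, adjusted p = 0.0560 to 0.0607). Without naïve replicate 3, 4 or 5 the count in IMO-8400 mice was 5, 5 and 6. For fits without 1 mouse, and for fits of only 1 antagonist group and naïve mice, the share of all tested probe sets is not given. Those counts therefore cannot be set against it. All these comparisons share the naïve arrays, and the comparisons with saline share the saline arrays.

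Ordered by group mean, Fcgr4 was highest in IMO-3100 and saline mice, which did not differ beyond their spread, then in IMO-8400 mice, then in naïve mice. Fcgr1 ran from saline to IMO-3100 to IMO-8400 to naïve mice, where IMO-8400 and naïve mice overlapped at both probe sets. Fcer1g, Tyrobp and all 4 Syk probe sets were highest in IMO-3100 mice, followed by saline, IMO-8400 and naïve mice, where IMO-3100 and saline mice overlapped at each. Fcgr3 was ordered as Fcgr1 was, and its naïve range held the values of all the other 15 mice.

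The receptors were also set against each other within each mouse, as the log2 value of an activating receptor minus that of Fcgr2b at 1435477_s_at. The subtraction removes only a shift of the same log2 size in both probe sets. A shift of unequal size stays in the measure. This measure was chosen after the values had been seen. Its level has no meaning across probe sets, so only its change between groups is read, and the size of that change also depended on the probe sets used. Fcgr4 minus Fcgr2b was -0.51, -0.34, -0.38, -0.14 and -0.55 in saline mice, against -5.37, -4.60, -3.37, -2.71 and -2.98 in naïve mice. The difference of the means was 3.42 (exact two-sided permutation p = 0.00794, the smallest that 5 mice against 5 allow, and 0.0204 after Benjamini-Hochberg adjustment over the 18 such tests made). It was 2.64 without naïve replicates 1 and 2, still without overlap, and 3.04 to 3.42 over the 4 Fcgr2b probe sets. The mean of 6 leukocyte genes was 11.5, 13.0, 13.2, 13.5 and 13.5 in naïve replicates 1 to 5, and its part in the measure was not tested.

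Fcgr4 minus Fcgr2b was -1.31, -0.89, -1.43, -1.81 and -0.65 in IMO-8400 mice, all below the saline mice. The difference of the means was -0.83 against saline mice and -1.0 against IMO-3100 mice, each with an exact permutation p of 0.00794 and an adjusted p of 0.0204. This rested on the Fcgr2b probe set, and both sets that gave this p, 1435477_s_at and 1455332_x_at, can share probes with other transcripts. Against saline mice it was -0.76 (exact permutation p = 0.00794) with 1455332_x_at, -0.43 (exact permutation p = 0.0794) with 1435476_a_at and -0.35 (exact permutation p = 0.183) with 1451941_a_at in place of 1435477_s_at. Against IMO-3100 mice the last of these gave -0.58 (exact permutation p = 0.0714). For Fcgr1 the measure used only 1417876_at, and it was not computed with 1436625_at. The log2 fold changes of Fcgr1 itself were larger in size at 1436625_at. They were 4.15 in saline against naïve mice (2.02 at 1417876_at) and -1.75 in IMO-8400 against saline mice (-1.31). With 1417876_at, Fcgr1 minus Fcgr2b differed by 1.40 between saline and naïve mice (exact permutation p = 0.00794, adjusted 0.0204). It differed by -0.75 between IMO-8400 and saline mice (exact permutation p = 0.0238, adjusted 0.0536). The second of these was -0.68 (exact permutation p = 0.0238) with 1455332_x_at, -0.35 (exact permutation p = 0.222) with 1435476_a_at and -0.27 (exact permutation p = 0.310) with 1451941_a_at in place of 1435477_s_at. Fcgr3 minus Fcgr2b differed by -0.06 between saline and naïve mice (exact permutation p = 0.722), with ranges of -0.12 to 0.52 in saline mice and -0.04 to 0.38 in naïve mice. With the other Fcgr2b probe sets it was -0.43 (exact permutation p = 0.151, 1435476_a_at), -0.41 (exact permutation p = 0.183, 1451941_a_at) and -0.15 (exact permutation p = 0.397, 1455332_x_at). Between IMO-8400 and saline mice Fcgr3 minus Fcgr2b differed by 0.17 (exact permutation p = 0.246), and by 0.57 (exact permutation p = 0.0238) with 1435476_a_at and 0.65 (exact permutation p = 0.0317) with 1451941_a_at.

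**Figure D4:**
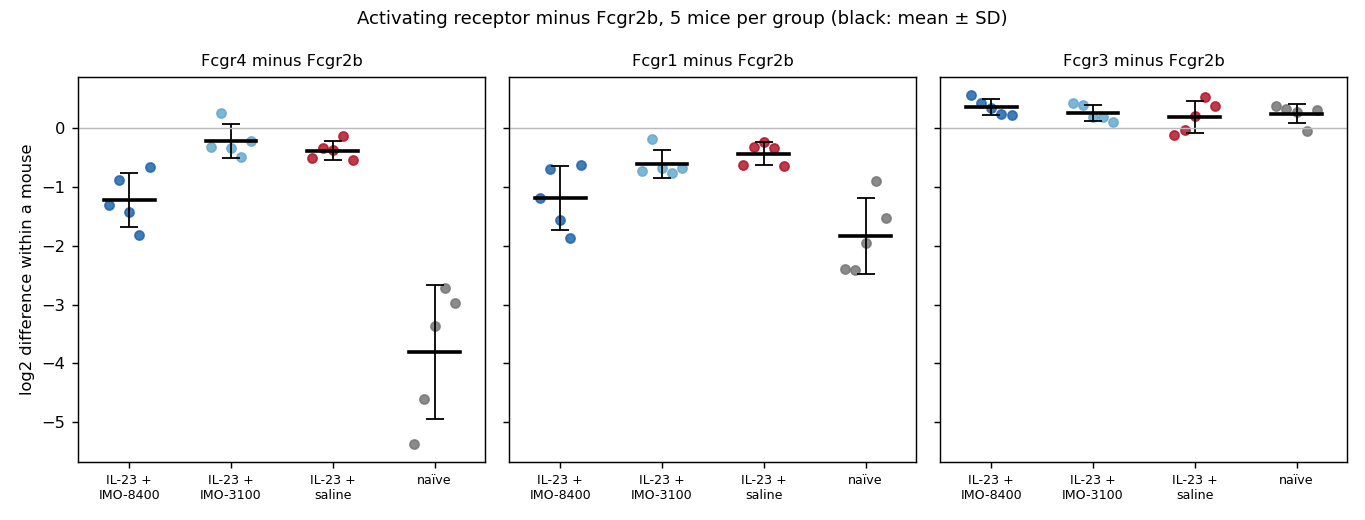
Within-mouse log2 difference (y axis) between Fcgr4, Fcgr1 (1417876_at) or Fcgr3 and Fcgr2b at 1435477_s_at by group (x axis, 5 mice each). Points are mice and black lines are mean ± SD. Fcgr4 minus Fcgr2b averages -1.22 in IMO-8400 mice, -0.22 in IMO-3100 mice, -0.38 in saline mice and -3.81 in naïve mice, while Fcgr3 minus Fcgr2b lies between -0.12 and 0.57 in all 20 mice.

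Fcgr2b, Fcgr4, Fcgr3 and Fcer1g are neighbours on chromosome 1, and Fcgr1 lies on chromosome 3. The 120 bases before the annotated start are printed for the IgG receptors, which differed in their rise, from RefSeq (GRCm38.p6), 5′ to 3′ on the gene's strand. Capitals mark matches to GAGGAA, the core bound by the myeloid factor PU.1, on either strand (TTCCTC where it lies on the other strand) and to TTCNNNGAA, the GAS element of STAT factors, and these motifs did not overlap each other. Fcgr4 (chr1:171018806-171018925, + strand), Fcgr1 (chr3:96293970-96294089, - strand), Fcgr3 (chr1:171059404-171059523, - strand, the first of its annotated starts) and Fcgr2b (chr1:170976072-170976191, - strand) read as follows.
Fcgr4: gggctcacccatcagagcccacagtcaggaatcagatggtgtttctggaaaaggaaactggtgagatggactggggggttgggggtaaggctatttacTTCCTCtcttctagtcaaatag
Fcgr1: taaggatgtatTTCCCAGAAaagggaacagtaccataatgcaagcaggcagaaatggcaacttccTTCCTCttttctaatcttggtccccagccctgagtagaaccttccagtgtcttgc
Fcgr3: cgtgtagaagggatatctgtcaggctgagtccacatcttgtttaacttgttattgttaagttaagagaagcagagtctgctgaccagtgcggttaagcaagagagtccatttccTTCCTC
Fcgr2b: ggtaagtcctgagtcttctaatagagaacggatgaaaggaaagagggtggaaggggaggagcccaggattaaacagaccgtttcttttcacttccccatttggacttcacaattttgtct
GAGGAA was found in 5 of the 11 windows that the table gives for 7 member genes (1 of Fcgr1, 1 of Fcgr4, 1 of Syk and 2 overlapping ones of Fcgr3), against 11.6% of all 32851 windows of this length. TTCNNNGAA was found in 1 of the 11, that of Fcgr1, against 3.15% of all windows. Tyrobp had no window in the table used. A match describes these letters only.

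Genes between Fcgr2b and Fcer1g, looked up after the members' values were known, did not move together. Of 7 non-member genes there, 5 were tested in saline against naïve mice. Cfap126 (1.38) and Apoa2 (1.15) were higher and Pcp4l1 (-1.95) was lower, while Sdhc had a log2 difference of 0.04 and Tomm40l one of 0.42.

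The rest of the pathway was read from lists of 81 genes, of which 65 were tested at their probe set with the highest mean. In saline mice 41 of 65 were higher and 0 lower than in naïve mice, with a median log2 fold change of 1.84, where 7.58% of all tested probe sets were higher and the median over them was -0.04. Without naïve replicates 1 and 2, a setting chosen after seeing the data, 35 of 65 were higher, where 6.78% of all tested probe sets were, with a median of 1.22, and 1 was lower, the neonatal Fc receptor Fcgrt (-1.49, adjusted p = 7.84e-05). In the list of receptors that signal through ITAM adaptors, which also named the adaptor Hcst, 13 of 14 tested genes were higher. Clec4e, a Syk-coupled receptor for mycobacterial glycolipid and damaged cells, averaged 11.19 ± 0.95 in saline mice and 2.53 ± 1.10 in naïve mice, with 1 naïve array above 3. Its relative Clec4d averaged 13.63 ± 0.40 in saline mice and 6.59 ± 2.20 in naïve mice, and Sirpb1a, a Tyrobp-coupled receptor, averaged 11.91 ± 0.49 in saline mice and 6.57 ± 2.47 in naïve mice. The log2 fold change of Sirpb1a was 5.34, and 3.74 without naïve replicates 1 and 2. Ncr1, the NKp46 receptor of NK cells, averaged 8.78 ± 0.73 in saline mice and 3.78 ± 0.84 in naïve mice. NK cell markers as a list, which includes Ncr1 itself, averaged 8.95 (8.24 to 9.63) in saline mice and 5.57 (3.98 to 6.07) in naïve mice. The part of these cells was not tested.

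Of the other Fc receptors 2 of 6 were higher, Fcer1a (log2 fold change 5.18) and Ms4a2 (1.08), the alpha and beta chains of the high-affinity IgE receptor. Of the Src kinases that phosphorylate ITAMs 3 were tested and 2 were higher, Fgr (4.86) and Blk (2.84). Of the downstream proteins 11 of 22 were higher, led by the linker Lat (3.45), the actin regulator Was (2.87), the exchange factor Vav1 (2.87) and the GTPase Rac2 (2.67). Of the inhibitors 13 of 20 were higher, led by the inhibitory receptors Siglece (5.13), Cd22 (3.99), Pilra (3.58) and Cd300lf (2.87). In each of these lists 0 genes were lower. The log2 fold changes without naïve replicates 1 and 2 were 4.76 for Fcer1a, 3.40 for Fgr, 1.84 for Was, 1.82 for Vav1, 1.71 for Rac2, 4.31 for Siglece and 2.42 for Pilra. The call of Ms4a2 was lost, at 0.70 without those mice and with an adjusted p of 0.152 in a fit of only saline and naïve mice.

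Under the antagonists the pathway genes that passed the test against saline were 12 of 65 lower in IMO-8400 mice, where 3.59% of all tested probe sets were lower, and 7 of 65 lower in IMO-3100 mice, where 3.73% were, with 0 higher in both. Fcer1a, which needs Fcer1g at the surface of mast cells and basophils, averaged 7.17 ± 0.84 in IMO-8400 mice and 7.76 ± 0.55 in IMO-3100 mice, against 9.74 ± 0.67 in saline mice. Its log2 fold change against saline was -2.56 in IMO-8400 mice (adjusted p = 0.00300) and -1.97 in IMO-3100 mice (adjusted p = 0.0154), while Fcer1g differed by -0.27 in IMO-8400 mice and 0.06 in IMO-3100 mice. Mast cell and basophil markers averaged 8.49 in IMO-8400 mice, 8.53 in IMO-3100 mice and 9.60 in saline mice. Under each antagonist 2 of 8 were lower. The median log2 difference from saline over these markers was -0.13 in IMO-8400 mice and -0.07 in IMO-3100 mice, and their part was not tested. Lat and Ncr1 were lower under both antagonists, Lat by -1.24 and Ncr1 by -2.17 in IMO-8400 mice, and Lat by -1.66 and Ncr1 by -2.37 in IMO-3100 mice. The NK cell markers given above, which include Ncr1, were lower under both. T cell markers averaged 9.69 (9.48 to 10.03) in IMO-8400 mice, 9.68 (9.19 to 9.90) in IMO-3100 mice and 10.14 (9.91 to 10.32) in saline mice, with 2 of 5 lower under each antagonist. The part of NK and T cells was not tested. Sirpb1a (-2.43), Pilra (-2.33), Clec4e (-2.56) and Cd300lf (-1.52) were lower in IMO-8400 mice, and did not pass in IMO-3100 mice, where Sirpb1a differed from saline by -0.24, Pilra by -0.75, Clec4e by -2.12 and Cd300lf by -1.11. Between IMO-8400 and IMO-3100 mice 0 of 65 passed the test, where 0.245% of all tested probe sets were lower. In a fit of only these groups 5 of 65 were lower, where 0.64% of all tested probe sets were. They were Sirpb1a (-2.19), Siglece (-1.65), Pilra (-1.58), Cd300ld (-1.43) and Vav1 (-1.14).

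Genes most like a member were those with the smallest root mean square difference from it over the 20 arrays after centring each on its mean. For Fcer1g they were Wfdc17 (0.10 on the log2 scale), Coro1a (0.12), Cd52 (0.14), Fermt3 (0.14) and Arhgap30 (0.15), and for Tyrobp Wfdc17, Cd53, Pip4k2a, Cd52 and Coro1a, at 0.14 to 0.17. For Fcgr4 they were Pik3ap1 (0.32), Milr1, Tlr1, Aoah and Zc3h12d (0.44), and for Fcgr1 Ms4a6d (0.24), Oas1a, Ncf1, Sp110 and Cd40 (0.30). The lists of Fcgr4 and Fcgr1 held none of the genes listed for the adaptors, of which Coro1a, Cd52 and Cd53 are also among the 6 pan-leukocyte genes. Probe sets were centred but not scaled, so only genes with changes of similar size could be close. In saline against naïve mice the log2 fold change was 4.04 for Fcgr4, 2.02 for Fcgr1 at 1417876_at, 1.19 for Fcer1g and 0.94 for Tyrobp. The lack of shared genes therefore does not show that the patterns differ.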

How the data were processed

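Gene expression was measured in skin of 20 mice on whole-genome Affymetrix arrays. The authors deposited GCRMA values in log2 units, between 2.02 and 15.79, and no source used here names the GCRMA version. These log2 values were used as they stand, and the files carry no detection calls, so a group with all arrays below 3 was taken as near background. Probe sets were named by the platform annotation (34958 with 1 symbol, 932 with several, 9211 with none). As in the methods of the study, probe sets above 2 in at least 3 arrays and with an SD above 0.1 were tested (30960), of which only the SD acted as no value was below 2.02, and DEGs had an FDR under 0.05 and a fold change over 2. Group means were fitted with limma 3.58.1 (R 4.3.3), with Benjamini-Hochberg adjustment over all tested probe sets. Adjusted p-values are from this fit of all 4 groups unless a fit of only the groups compared is named. Measures within a mouse were compared by exact permutation tests (SciPy 1.17.1). The code was tested on simulated data. Precision is limited by 5 arrays a group. The members, marker lists and pathway lists were chosen with earlier results of these data known. All members were described at every probe set. Pathway lists are given by counts and at most 4 called genes with the largest change in saline against naïve mice, and likeness by the 5 closest genes. Alternatives were other filters, scalings and fits, leaving out mice, and any probe set of a gene. Some genes are not reported here.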

Additional observations from a re-analysis of the deposited data

Results flagged for a closer look

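In 4 of 56 groups of 5 mice 1 mouse stood apart from the others by Dixon's test, and all 4 were IMO-8400 replicate 4. Chance does this in about 1 of 20 separate groups, but these groups share mice and genes and are not separate. IMO-8400 replicate 4 had 13.18 for Fcer1g, against 13.48 to 13.54 in the other IMO-8400 mice. For Syk it had 10.24 at 1418261_at (others 11.10 to 11.26), 9.22 at 1418262_at (10.31 to 10.39) and 3.48 at 1425797_a_at (4.28 to 4.40). It had the lowest IMO-8400 value at 12 of the 14 tested probe sets. Its mean was also the lowest of that group for pan-leukocyte markers, 13.41 (others 13.62 to 13.68), and for macrophage markers, 11.86 (others 12.35 to 12.56). Without IMO-8400 replicate 4 the 14 probe sets still held 0 calls against saline mice, and Syk at 1418262_at passed both thresholds against naïve mice, with a log2 fold change of 1.19.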

How the results depend on the processing

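Another filter, a floor of 4, a common 75th percentile, quantile normalization or a trended robust fit changed the side of the threshold only for Syk at 1425797_a_at. In fits of only the 2 groups compared, the calls were 4 in IMO-8400 against saline mice (0 in the fit of all groups), 1 against IMO-3100 mice (0), 6 in saline against naïve mice (7), 5 in IMO-3100 against naïve mice (9) and 1 in IMO-8400 against naïve mice (3). Without naïve replicates 1 and 2 they were 3 in saline (7), 5 in IMO-3100 (9) and 1 in IMO-8400 mice (3). Leaving out 1 mouse gave 6 to 11 in saline, 7 to 9 in IMO-3100 and 1 to 6 in IMO-8400 mice against naïve mice, with 11 and 6 without naïve replicate 5. With any probe set of a gene, 70 pathway genes were counted in place of 65. Of these 49 were higher in saline against naïve mice (41) and 18 lower in IMO-8400 against saline mice (12). In IMO-3100 mice 9 were lower against saline mice (7), and 39 were higher (36) and 1 lower (0) against naïve mice. In IMO-8400 mice 30 were higher against naïve mice (25). A gene with several probe sets had several chances to pass, so these counts cannot be set against the share of all tested probe sets. The other settings of the pathway lists were chosen after seeing the data. In fits of only the 2 groups compared, 11 pathway genes were higher in IMO-8400 against naïve mice (25). In such a fit 5 were lower in IMO-8400 against IMO-3100 mice (0), where 0.64% of all tested probe sets were. With naïve replicates 1 and 2 left out, 15 were higher in IMO-8400 against naïve mice, where 2.75% of all tested probe sets were (25, where 3.6% were). In the same setting 1 was lower in saline, in IMO-3100 and in IMO-8400 mice against naïve mice (0 each). Of all tested probe sets 8.90%, 4.14% and 2.27% were lower there. Leaving out 1 mouse gave 16 to 33 higher in IMO-8400 against naïve mice, 16 without IMO-8400 replicate 1, and 0 to 1 lower in saline and in IMO-3100 against naïve mice. Against saline mice it gave 8 to 12 lower in IMO-8400 mice, 8 without IMO-8400 replicate 4. The share of all tested probe sets is not given for fits without 1 mouse, nor for fits of only 1 other group and naïve mice.

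Signs turned mostly against naïve mice. Without naïve replicates 1 and 2, Fcgr2b was at -0.051 (1435477_s_at) and -0.0039 (1455332_x_at) and Fcgr3 at -0.037 in saline mice. In IMO-3100 mice the 4 Fcgr2b probe sets were at -0.036, -0.19, -0.081 and -0.18 and Fcgr3 at -0.11. In IMO-8400 mice Fcgr1 at 1417876_at was at -0.34, Fcgr2b at -0.83 (1435476_a_at), -0.61 (1435477_s_at) and -0.63 (1455332_x_at), and Fcgr3 at -0.43, the last 4 with limma adjusted p of 0.0112 to 0.0250 and under 2-fold. Leaving out 1 mouse, IMO-8400 against naïve mice ranged over -0.55 to 0.34 (1435476_a_at), -0.38 to 0.27 (1435477_s_at), -0.60 to 0.25 (1451941_a_at) and -0.40 to 0.32 (1455332_x_at) for Fcgr2b and -0.23 to 0.40 for Fcgr3. IMO-3100 against saline mice ranged over -0.077 to 0.11 for Fcgr4 and -0.020 to 0.49 for Syk at 1457239_at. Fcgr3 minus Fcgr2b within a mouse, with alternatives chosen after seeing the data, turned to 0.014 in saline against naïve mice without naïve replicates 1 and 2, and to -0.34, -0.28 and -0.04 in IMO-3100 against naïve mice with the other Fcgr2b probe sets. The cause was not tested. No paired analysis was possible because the labels give the groups no shared replicate numbers. The spread of 5 mice limits the detectable change.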
